A study of Mus musculus with 6 samples.

Results

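The Smad family comprises the intracellular proteins that carry signals of the TGF-beta superfamily from the cell surface to the nucleus. Its 8 mouse genes, Smad1 to Smad7 and Smad9, were chosen by the gene name that the array files give, which selected 12 of the 39429 probes that were not controls. These genes were picked with earlier results of the same arrays known, in which Smad7 stood among the genes that differed most between genotypes. The knockout against wild type values of the family are therefore given as a description, and the counts of calls among them carry no weight.

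Female C57BL/6J mice aged 20 weeks gave the ovaries, 3 samples of SeBP1 knockout and 3 of wild type. SeBP1 is selenium-binding protein 1, gene symbol Selenbp1, and the purpose of the series was to find the effect of its deletion on ovarian expression. Each RNA carried the dye Cy3 and was read on its own Agilent array of the mouse genome. The labels state neither how the gene was deleted nor that the 3 samples of a genotype are separate animals. The spread between these samples, which the SDs measure, may therefore be technical. Standard errors come from limma, which draws the variance of each probe toward a value shared by all probes tested.

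Ligands of this superfamily bring together type I and type II receptors, and the type I receptor phosphorylates receptor-regulated Smads. Smad2 and Smad3 answer mainly to TGF-beta, activin and the oocyte factor GDF9, while Smad1, Smad5 and Smad9 answer mainly to bone morphogenetic proteins (BMPs) and anti-Mullerian hormone. Both classes join the common Smad, Smad4, and enter the nucleus to regulate genes. The inhibitory Smads, Smad6 and Smad7, block this step and are themselves induced by the pathway. In the ovary these signals govern granulosa cell growth, steroid synthesis and communication between oocyte and granulosa cells.

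Signals are given as log2 of the processed intensity minus log2 of the 75th percentile of that array, so that 0 is the 75th percentile and each step of 1 is a doubling. The 75th percentile lay between 1493 and 1659 intensity units on the knockout arrays and between 1309 and 1759 on the wild-type arrays. Between 63.9% and 69.3% of spots were well above background on knockout arrays, against 61.6% to 67.8% on wild-type arrays, and wild type replicate 3 was lowest on both measures. The 6 arrays lay on 2 slides. Slide 2 held the 3 knockouts and wild type replicate 3, and slide 1 held wild type replicates 1 and 2. Taking slide as a block sets the mean of the 3 knockouts against wild type replicate 3. Where the difference of a gene over all 6 arrays is given below, the value with slide as a block stands beside it. Selenbp1 was at -0.11, 0.02 and -0.37 in knockout replicates 1 to 3, against 2.68, 2.52 and 2.59 in wild type replicates 1 to 3, a difference of -2.75 (-2.74 with slide as a block). Among the markers, 12 of 12 oocyte and 10 of 10 granulosa genes listed passed the filter on background. This filter asked for a clear signal on the 3 arrays of either genotype. Of all 39429 probes 24415 passed it, so passing alone does not show the tissue. Wild type replicate 2 stood apart in the oviduct glycoprotein gene Ovgp1, which was at 4.83 there and between -3.49 and -1.13 on the other arrays.

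All 12 Smad probes were well above background on all 6 arrays, and each was a single spot. Smad1, Smad3, Smad4 and Smad5 had 2 probes each and the other members 1. The first 30 of the 60 bases of the probes for Smad1, Smad3 and Smad5 are shown because both probes are named for a single gene and yet differ in brightness. The letters are those of the files, on build mm9, and capitals mark AATAAA, the hexamer that commonly precedes a polyadenylation site.
Smad1 brighter probe, chr8:81863045-81863074, minus strand: ttaaagtacaggttaatcgttatgacatgc
Smad1 dimmer probe, chr8:81880264-81880293, minus strand: tgggacaaaatgagcctcacatgccactga
Smad3 brighter probe, chr9:63494604-63494633, minus strand: tataaacgcccttctAATAAActtttcacc
Smad3 dimmer probe, chr9:63497522-63497551, minus strand: cgctgaaggtcagcgtataggtgatgtaca
Smad5 brighter probe, chr13:56843578-56843607, plus strand: gtacactagcagcgtgcttcaattctgcca
Smad5 dimmer probe, chr13:56838912-56838941, plus strand: tgtgagctgacatggaaaacagatattatt

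AATAAA occurred in 4 of the 12 Smad probes, those of Smad2 and Smad7 and 1 each of Smad3 and Smad4, and in 12.6% of all probes. Its reverse complement TTTATT occurred in 0 of the 12 and in 4.03% of all probes. The 2 members of a pair lay in the order of transcription, and in all 4 genes the downstream probe was the brighter. For Smad3 the probes were 2918 bases apart, and the downstream one was 87.8-fold brighter, with a mean log2 gap of 6.46 ± 0.46 (SD over 6 arrays). For Smad5 they were 4666 bases apart, with a gap of 6.28 ± 0.09 or 77.6-fold. Smad4, with 998 bases between its probes, showed a gap of only 0.50 ± 0.20. In these 3 genes the distance along the transcript given in the files equals the distance on the genome, so no intron lies between the probes. For Smad1 the transcript distance was 1396 bases and the genomic distance 17219 bases, and the gap was 0.94 ± 0.07. Downstream and upstream probes thus gave very unequal signals for Smad3 and Smad5, and the reason was not tested.

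**Figure D1:**
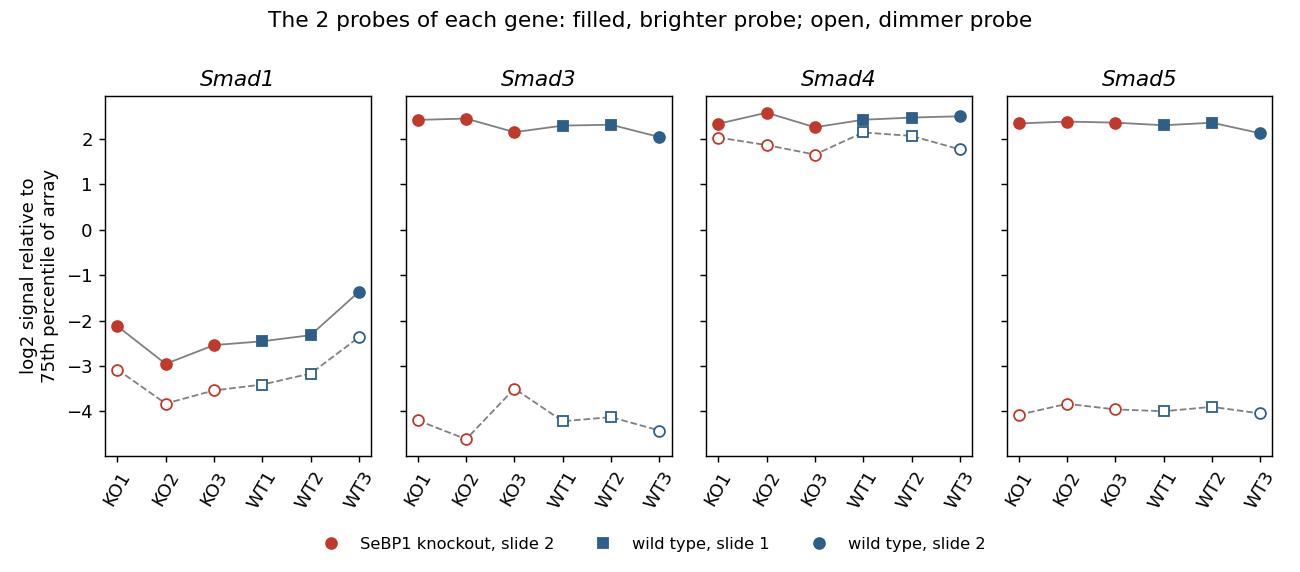
Log2 signal of both probes of Smad1, Smad3, Smad4 and Smad5 on each array (KO, SeBP1 knockout; WT, wild type; number, replicate); filled points are the brighter probe, open points the dimmer, squares slide 1 and circles slide 2. The pairs of Smad3 and Smad5 lie 6.46 and 6.28 log2 units apart, and both Smad1 probes follow the same course over the arrays.

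Ordered by the signal of the brightest probe, Smad4, Smad5 and Smad3 came first, Smad2, Smad7 and Smad6 followed, and Smad1 and Smad9 came last. Smad4 averaged 2.39 ± 0.17 in knockout and 2.46 ± 0.04 in wild-type ovaries (SD, n = 3 each, as for all means below). Smad5 averaged 2.36 ± 0.02 in knockout and 2.26 ± 0.12 in wild type, and Smad3 averaged 2.34 ± 0.17 in knockout and 2.22 ± 0.15 in wild type. These 3 did not separate: Smad4 was above Smad5 on 4 of 6 arrays and Smad5 above Smad3 on 4 of 6. A step of 2.76 ± 0.22 log2 units down to Smad2 held on all 6 arrays. Smad2 lay above Smad7 on all 6 arrays, Smad7 above Smad6 on 5, Smad6 above Smad1 on 5, and Smad1 above Smad9 on all 6. The gaps from Smad7 to Smad6, 0.31 ± 0.35, and from Smad6 to Smad1, 0.81 ± 0.85, were smaller than their own spread. The order of the means was the same in both genotypes. It ranks probe signals and not transcript amounts, since probes bind their targets with unequal strength, and the dimmer probes of Smad3 and Smad5, at -4.18 and -3.97 over all arrays, would stand last.

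In position, Smad2, Smad4 and Smad7 share chromosome 18, where their probes lie at chr18:76464903-76464962, chr18:73798670-73798729 (the brighter of Smad4) and chr18:75555371-75555430 (mm9). Smad3 and Smad6 share chromosome 9, with Smad6 read at chr9:63800980-63801039. Smad9 is read at chr3:54605068-54605127. Exons and untranslated parts were not annotated for this build here.

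Between genotypes, only Smad7 separated the groups: it was higher in all 3 knockout ovaries than in any wild type. Among the 24180 probes with a value on all arrays, 3.97% had all knockouts above all wild types, 4.69% had them below, and 8.66% were apart in either direction. The genotypes overlapped for every other Smad probe. Limma called 0 of the 12 Smad probes at an adjusted p under 0.05, where 0.0041% of the 24415 probes tested were called. At an unadjusted p under 0.05 there was 1 of the 12, Smad7, beside 3.95% of all probes tested. Since the family was chosen with this contrast known, nothing is read from either count. Of the 8 members, 4 were higher and 4 lower in knockout by their brightest probe, with a median difference of 0.024, or 0.063 with slide as a block. Over all 24415 probes the median difference was -0.017 and the median size of a difference, whatever its sign, was 0.11. Both probes of each paired gene gave differences of the same sign in all 4 genes.

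**Figure D2:**
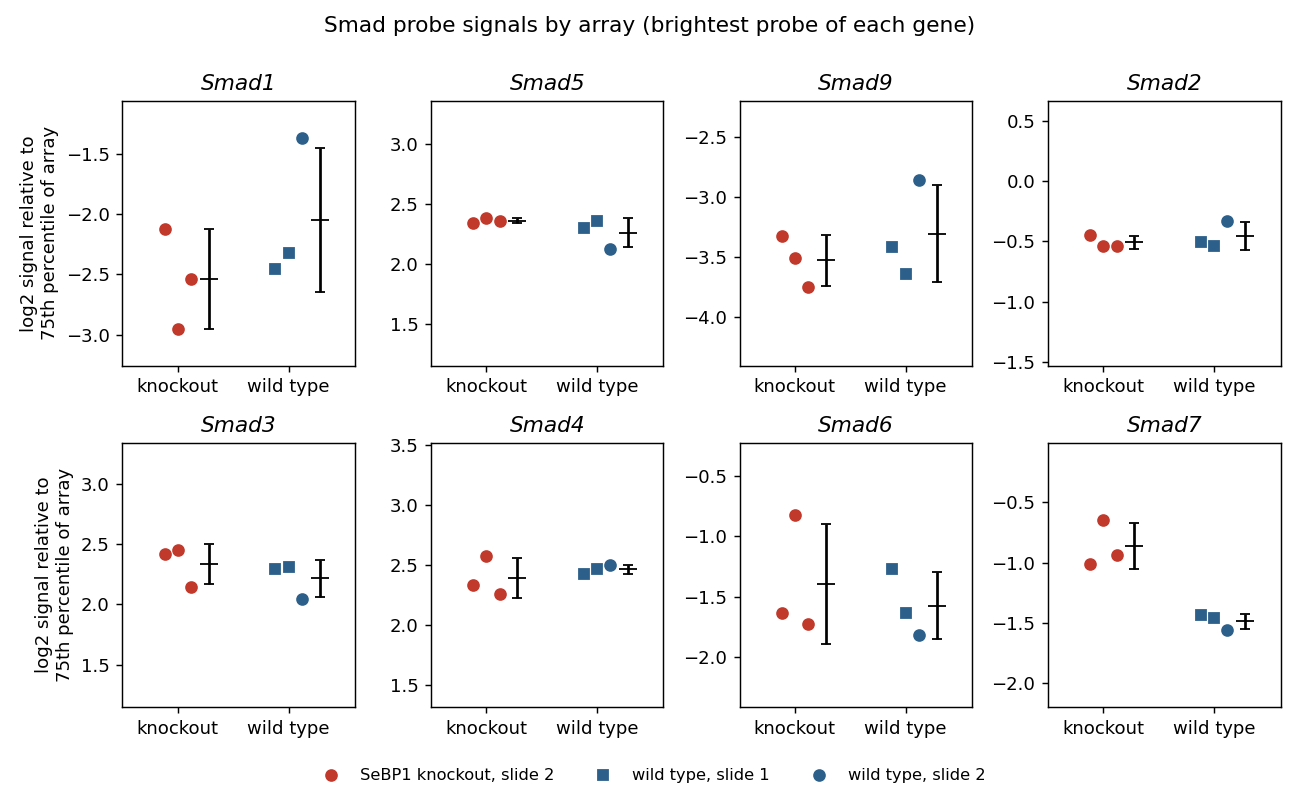
Log2 signal of the brightest probe of each Smad gene, SeBP1 knockout left of wild type, with a point per array (squares, slide 1; circles, slide 2) and the mean with its SD (n = 3) beside the points. Every panel spans 2.2 log2 units, and the groups are apart for Smad7 alone, with a gap of 0.43.

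Among the BMP-class Smads, Smad1 was the most variable member. Its brighter probe was at -2.12, -2.95 and -2.54 in knockout replicates 1 to 3, against -2.46, -2.32 and -1.36 in wild type replicates 1 to 3. Wild type replicate 3 stood highest and knockout replicate 2 lowest, and the groups overlapped. The dimmer probe repeated this course at -3.08, -3.83 and -3.54 in the knockouts, against -3.41, -3.17 and -2.37 in the wild types. On no array did the gap between these probes depart from its mean by more than 0.093. The differences were -0.49 with a standard error of 0.34 and -0.50 with a standard error of 0.32, and with slide as a block they were -1.18 and -1.12. Without wild type replicate 3 the difference of the brighter probe was -0.15. Its SD over the 6 arrays, 0.53, exceeded that of 92.3% of the probes tested.

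Knockout replicate 2, the lowest array for Smad1, was also lowest in the summed level of several lists of markers for other ovarian cells. The corpus luteum list, 8 genes such as the prolactin receptor Prlr and the prostaglandin F receptor Ptgfr, had a summed level of 121, 10.5 and 79.4 times the 75th percentile in knockout replicates 1 to 3. In wild type replicates 1 to 3 it was 52.9, 48.5 and 72.5. The 11 endothelial genes had 30.5, 21.8 and 25.2 in the knockouts, against 22.0, 22.9 and 30.6 in the wild types. Without Egfl7, the brightest of these, the other 10 had 12.1 in knockout replicate 2. That was above the 11.6 and 11.9 of wild type replicates 1 and 2. The 7 smooth muscle genes had 53.1, 34.8 and 56.3 in the knockouts, against 61.2, 53.9 and 48.6 in the wild types. The 12 oocyte genes ran otherwise, with knockout replicate 2 highest at 65.5, narrowly above wild type replicate 2 at 64.9. All members of these lists were measured. Wild type replicate 3, the highest array for Smad1, was highest in the endothelial list, level with knockout replicate 1, but not in the luteal or the smooth muscle list. Of the luteal genes 6 of 8 were lower in knockout, and their median was -0.58 (slide as a block, -1.18). Of the endothelial genes 7 of 11 were higher, and their median was 0.093 (slide as a block, -0.19). Of the smooth muscle genes 7 of 7 were lower, and their median was -0.36 (slide as a block, -0.064). The part of these cells in the Smad1 values was not tested, and in whole ovary fewer cells of a type and less RNA per cell cannot be told apart.

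Smad5, the BMP-class Smad with the brightest probe, was nearly constant. It was at 2.34, 2.38 and 2.36 in knockout replicates 1 to 3, against 2.30, 2.36 and 2.12 in wild type replicates 1 to 3. Wild type replicate 3 was a little below the rest and the groups overlapped. The difference was 0.10 with a standard error of 0.11, or 0.24 with slide as a block. The dimmer probe gave 0.026 with a standard error of 0.11, or 0.091 with slide as a block.

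Smad9, the third BMP-class Smad, gave the dimmest signal by brightest probe. It was at -3.33, -3.51 and -3.75 in knockout replicates 1 to 3, against -3.42, -3.64 and -2.86 in wild type replicates 1 to 3. As for Smad1, wild type replicate 3 was highest and the groups overlapped. The difference was -0.22 with a standard error of 0.23, or -0.67 with slide as a block. It was 0.0010 if wild type replicate 3 is left out.

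In the TGF-beta and activin class, Smad2 varied little over the arrays. Smad2 was at -0.45, -0.54 and -0.54 in knockout replicates 1 to 3, against -0.50, -0.54 and -0.33 in wild type replicates 1 to 3, with the groups overlapping. Its difference was -0.052 with a standard error of 0.11, or -0.18 with slide as a block, and its SD over the arrays exceeded that of only 7.75% of the probes tested. Without wild type replicate 3 the difference was 0.012.

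Smad3, which mediates much of the transcriptional response to activin and TGF-beta, was at 2.42, 2.45 and 2.15 in knockout replicates 1 to 3 by its brighter probe, against 2.29, 2.31 and 2.04 in wild type replicates 1 to 3. The third replicate of each genotype was the lowest of its group and the groups overlapped. The difference was 0.12 with a standard error of 0.14, or 0.30 with slide as a block. The dimmer probe was at -4.20, -4.61 and -3.50 in the knockouts, against -4.22, -4.13 and -4.42 in the wild types, which differ by 0.15 with a standard error of 0.28 (0.32 with slide as a block). The dimmer probe did not follow the brighter one, and was highest in knockout replicate 3, where the brighter was the lowest of its group.

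Smad4, the partner of both classes, was at 2.33, 2.58 and 2.26 in knockout replicates 1 to 3, against 2.42, 2.47 and 2.50 in wild type replicates 1 to 3. The wild types lay close together, inside the range of the knockouts. The difference was -0.075 with a standard error of 0.12, or -0.11 with slide as a block. The dimmer probe gave -0.14 with a standard error of 0.15, or 0.081 with slide as a block, and so changed sign.

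**Figure D3:**
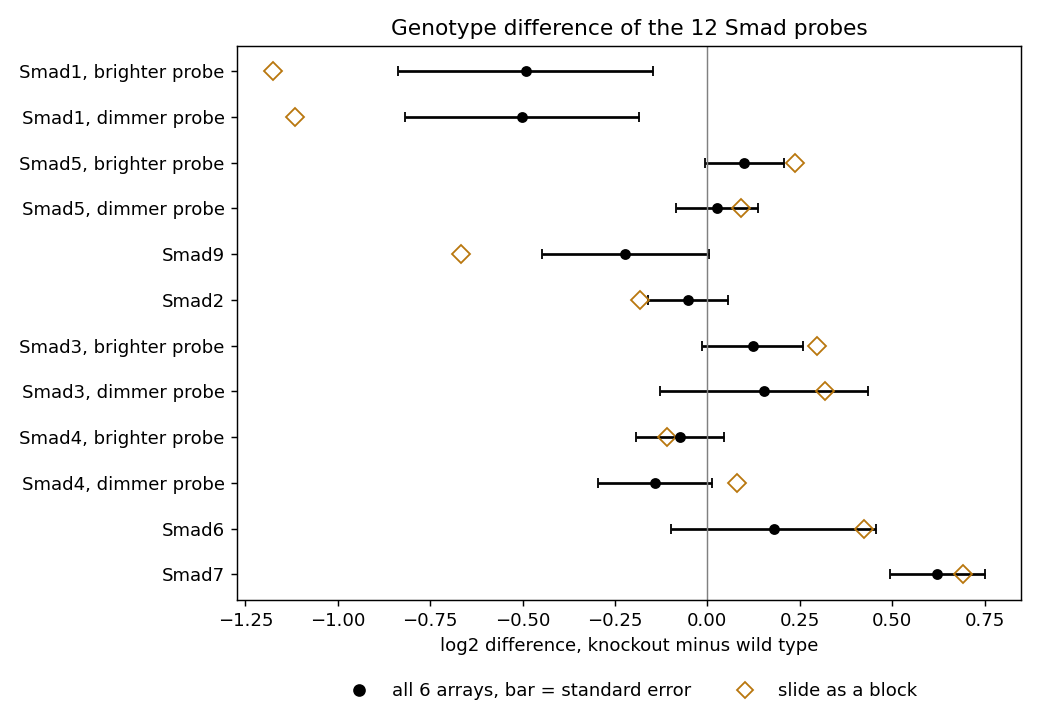
Log2 difference, SeBP1 knockout minus wild type, of the 12 Smad probes; filled points are the fit on all 6 arrays with bars of 1 standard error, and open diamonds are the value with slide as a block. Smad7 is at 0.62 and 0.69, both Smad1 probes move further below 0 with slide as a block, and the other probes lie between -0.22 and 0.18 in the fit on all arrays.

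The inhibitory Smads differed in how well the arrays separated. Smad6, which preferentially blocks BMP signalling, was at -1.64, -0.82 and -1.73 in knockout replicates 1 to 3, against -1.27, -1.64 and -1.82 in wild type replicates 1 to 3. Knockout replicate 2 was the highest array and the groups overlapped. The difference was 0.18 with a standard error of 0.28, or 0.42 with slide as a block, and without knockout replicate 2 it was -0.11.

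Smad7, which blocks TGF-beta, activin and BMP signalling and recruits ubiquitin ligases to the receptors, was at -1.01, -0.65 and -0.94 in knockout replicates 1 to 3. In wild type replicates 1 to 3 it was at -1.44, -1.46 and -1.56. In intensity these are 815, 953 and 867 units in the knockouts, against 649, 574 and 445 in the wild types. Every knockout lay above every wild type, with 0.43 log2 units between the nearest arrays. The difference was 0.62 with a standard error of 0.13, or 1.54-fold, and its size exceeded that of 96.3% of the probes tested. With slide as a block it was 0.69. Leaving out each array in turn gave 0.51 to 0.69.

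Immediate early genes are transcription factors and others that cells switch on quickly when stimulated. Their summed level was 51.8, 35.5 and 29.1 times the 75th percentile in knockout replicates 1 to 3, against 18.6, 21.2 and 20.0 in wild type replicates 1 to 3. Most of the gap between these sums lay in Nr4a1, a nuclear receptor named here after its values were seen, which alone made up 36.5, 26.7 and 17.5 in the knockouts, against 6.00, 9.88 and 8.25 in the wild types. The sum of the other 12 measured genes was 15.3, 8.80 and 11.6 in the knockouts, against 12.6, 11.3 and 11.8 in the wild types, and these groups overlapped. Of the 15 genes listed 13 were measured, 10 of them higher in knockout, while Egr3 and Nr4a3 did not pass the filter on background. The median over the list, each gene taken relative to its own mean, was 0.84, -0.35 and -0.13 in the knockouts, against -0.18, -0.08 and -0.35 in the wild types. By this measure knockout replicate 1 stood alone, and it was also the highest for Nr4a1, whereas among the knockouts Smad7 was lowest there and highest in knockout replicate 2. The groups were apart for 2 of the 13 genes, Nr4a1 and Nr4a2, beside 8.66% of all probes. Nr4a2, also named after its values were seen, was at -0.93, -0.22 and -1.27 in the knockouts, against -1.44, -1.52 and -1.50 in the wild types. Like Smad7, it was highest in knockout replicate 2. The part of these genes in the Smad7 values was not tested. The summed levels of the other marker lists overlapped between genotypes. By direction, 12 of 12 oocyte genes were lower in knockout, with a median of -0.21 that turned to 0.31 with slide as a block. Of the surface epithelium genes 6 of 7 were lower, and their median was -0.32 (slide as a block, -0.069). Of the granulosa genes 7 of 10 were higher, and their median was 0.12 (slide as a block, 0.65).

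Over 14061 named genes, those closest to Smad7 in pattern were Trim62, Cry1, Tcf7l1, Tmem52 and Spef1l. Likeness was measured as the root mean square difference of log2 values over the 6 arrays, each gene taken relative to its own mean, and was 0.12, 0.12, 0.13, 0.13 and 0.13 for these genes, against a median of 0.38 over all. In all 5 the knockouts lay above the wild types, as the choice by likeness to Smad7 makes likely. Cry1, a repressor in the circadian clock, was at -4.54, -4.35 and -4.36 in the knockouts, against -4.89, -5.16 and -4.95 in the wild types. The closest gene was Tinagl1 for Smad1 (0.076), Rnf214 for Smad2 (0.023), Cpxm1 for Smad3 (0.039), Nek4 for Smad4 (0.014), Alkbh4 for Smad5 (0.015), Lama1 for Smad6 (0.088) and Zfp52 for Smad9 (0.070). Tinagl1 was, like Smad1, highest in wild type replicate 3, at -0.69, and lowest in knockout replicate 2, at -2.09.

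**Figure D4:**
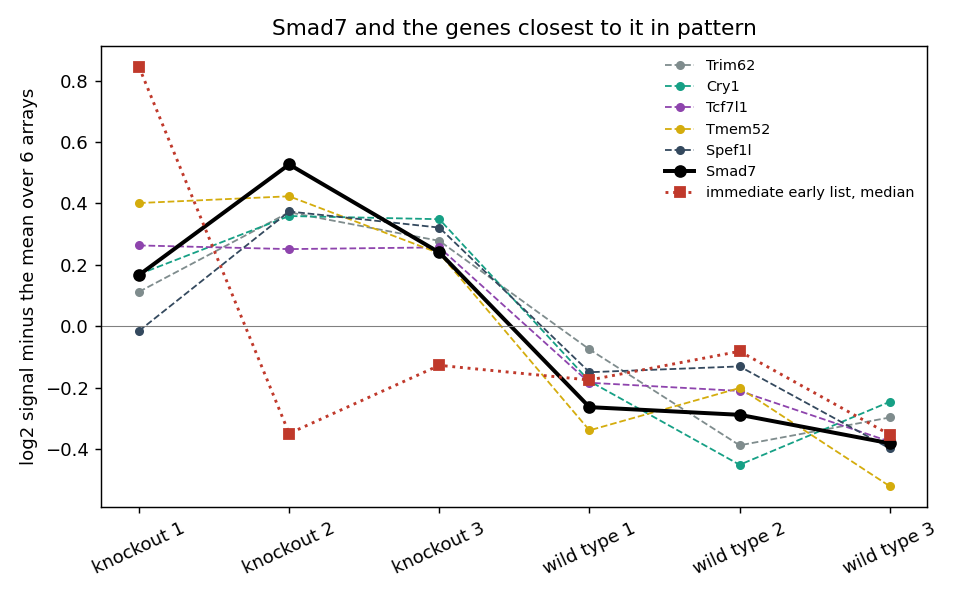
Log2 signal minus the mean over the 6 arrays for Smad7 (solid black), the 5 genes closest to it in pattern (dashed) and the median of the immediate early gene list (dotted), knockout arrays left of wild-type arrays. Smad7 and its closest genes step down between the genotypes, while the immediate early median is high in knockout replicate 1 alone, at 0.84.

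Around the Smads, 90 genes of the pathway were listed by role and 83 were measured. Limma called 0 of the 83 in either direction, with a smallest adjusted p of 1.00. At an unadjusted p under 0.05 there were 3, Gdf11, Id3 and Msx2, or 3.61% of the genes, against 3.95% of all probes tested. Of the 83 genes 32 were higher and 51 lower in knockout, with a median difference of -0.054. The genes named below had the smallest p of their lists in this contrast, which makes groups that stand apart likely among them. Groups were apart for 1 of 9 TGF-beta and activin class ligands and 1 of 7 type I receptors. They were apart for 2 of 21 regulators and partners, 2 of 11 BMP targets and no gene of the other lists. Over all probes the share was 8.66%.

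Ligands of the TGF-beta and activin class were measured for 9 of 10 genes, 3 higher and 6 lower, and their median was -0.085 (slide as a block, 0.21). Gdf11, a relative of myostatin, was at -5.34, -5.77 and -5.25 in knockout replicates 1 to 3, against -5.06, -5.07 and -5.00 in wild type replicates 1 to 3. All knockouts were below all wild types, but 1 of the 3 knockout arrays did not read Gdf11 well above background. The difference was -0.41 with a standard error of 0.16 (-0.45 with slide as a block). Tgfb3 and Tgfb2, isoforms of TGF-beta, differed by -0.17 and -0.21 (-0.0996 and 0.21 with slide as a block).

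Ligands of the BMP class were measured for 7 of 10 genes, 2 higher and 5 lower, and their median was -0.13 (slide as a block, 0.30). Amh, the anti-Mullerian hormone of growing follicles, was at -0.11, 0.60 and -0.26 in the knockouts, against -0.31, 0.15 and -0.80 in the wild types. The groups overlapped, and the difference was 0.39 with a standard error of 0.32 (0.88 with slide as a block). Bmp2 and Bmp4, ligands of the pathway that ends in Smad1, Smad5 and Smad9, differed by -0.28 and -0.13. With slide as a block these were -0.17 and 0.019. With each array left out in turn, Bmp2 ranged from -0.63 to -0.017.

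Extracellular antagonists, which bind ligands, were higher in 2 and lower in 8 of 10 measured, and their median was -0.16 (slide as a block, 0.072). Bmper, a secreted BMP modulator of blood vessels, was at 0.09, -0.32 and -0.11 in the knockouts, against 0.27, 0.05 and 0.79 in the wild types. The groups overlapped by a single array, and the difference was -0.49 with a standard error of 0.22 (-0.91 with slide as a block). Chrdl1 and Chrd, of the chordin family of BMP antagonists, differed by -0.27 and -0.17 (-0.061 and -0.099 with slide as a block).

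Type I receptors were higher in 1 and lower in 6 of 7, and their median was -0.088 (slide as a block, -0.051). Bmpr1a, a BMP receptor, was at 0.51, 0.59 and 0.48 in the knockouts, against 0.69, 0.65 and 0.60 in the wild types. These groups did not overlap, though only 0.12 log2 units lay between their means and the standard error was 0.096. With slide as a block the difference was -0.072. Acvr1 differed by -0.26 (0.0057 with slide as a block), and Acvr1c, which was well above background on 2 of 3 wild-type arrays, by -0.38 (0.36 with slide as a block). Type II receptors and co-receptors were higher in 4 and lower in 4 of 8, and their median was -0.011 (slide as a block, 0.083). Among these the anti-Mullerian hormone receptor Amhr2 differed by 0.16, the co-receptor Rgmb by -0.24 and the activin receptor Acvr2a by -0.12. With slide as a block these were 0.42, -0.094 and -0.23.

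Regulators and partners of Smad proteins were higher in 7 and lower in 14 of 21, and their median was -0.065 (slide as a block, -0.044). Foxl2, a transcription factor of granulosa cells that acts with Smad3, was at 3.01, 3.21 and 3.08 in the knockouts, against 3.29, 3.25 and 3.31 in the wild types. All knockouts were lower, and the standard error of the difference, -0.19 (-0.21 with slide as a block), was 0.10. Crebbp, a histone acetyltransferase that Smads recruit, was at 2.10, 2.22 and 2.14 in the knockouts, against 2.04, 1.98 and 1.99 in the wild types. Here all knockouts were higher, by 0.15 with a standard error of 0.096 (0.16 with slide as a block). Zfyve16, an endosomal protein that binds Smads, differed by -0.35, or -0.81 with slide as a block and -0.11 without wild type replicate 3.

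Genes that TGF-beta and activin are known to induce were higher in 11 and lower in 5 of 16, and their median was 0.12 (slide as a block, 0.17). None passed the test. Ccn2 (Ctgf in the files), a matrix-associated growth factor, was at 2.55, 2.33 and 2.96 in the knockouts, against 4.23, 3.74 and 2.42 in the wild types. The wild types on slide 1 stood above every other array, and the difference, -0.85 (standard error 0.46), was 0.19 with slide as a block. Snai1 and Snai2, transcription factors of epithelial plasticity, differed by 0.32 and -0.18. With slide as a block these were 0.16 and 0.14, so Snai2 changed sign.

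BMP target genes were higher in 5 and lower in 6 of 11, and their median was -0.018 (slide as a block, 0.17). Id3, an inhibitor of basic helix-loop-helix factors, was at 3.90, 3.99 and 4.59 in the knockouts, against 3.89, 3.52 and 3.49 in the wild types. All knockouts were higher, though knockout replicate 1 and wild type replicate 1 nearly met, and the difference was 0.53 with a standard error of 0.22 (0.67 with slide as a block; 0.31 if knockout replicate 3 is left out). Msx2, a homeobox factor, was at -3.82, -4.22 and -3.82 in the knockouts, against -1.06, -1.48 and -3.74 in the wild types. Only the wild types on slide 1 were clearly higher, and the difference was -1.86 with a standard error of 0.67, or -0.21 with slide as a block. With wild type replicate 3 left out, Msx2 was called lower, at -2.68 (limma, adjusted p = 0.0361). That fit sets wild types of slide 1 against knockouts of slide 2, so genotype and slide cannot be told apart in it. Msx1, its relative, differed by -0.27, or 0.17 with slide as a block, and so changed sign.

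**Figure D5:**
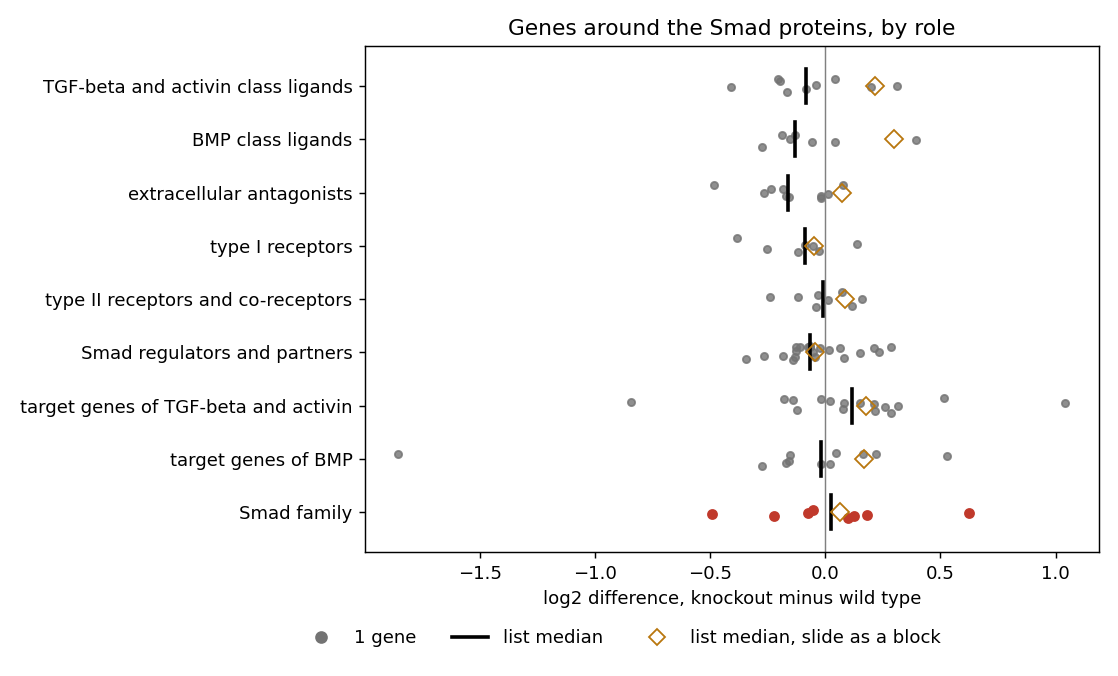
Log2 difference, SeBP1 knockout minus wild type, of the measured pathway genes by role and of the 8 Smad genes (bottom row); points are genes, black bars list medians and open diamonds list medians with slide as a block. List medians lie between -0.16 and 0.12, and several change sign with slide as a block.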

How the data were processed

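The authors' deposited scanner files hold spot intensity from Agilent Feature Extraction 10.7.1.1, background-subtracted and detrended within each array (per the file headers) and not normalized between arrays. The deposited series table, of intensity that shares 1 distribution over the arrays, served as an alternative, with a median of 119.8 on each, and the steps that made it are not given in the sources used here. Spots marked as outliers were left out, spots of a probe were averaged on the log2 scale, and each array was scaled by its 75th percentile over spots that were not controls. Tested were the 24415 probes (19412 genes) with a signal well above background on the 3 arrays of either genotype. No spot was saturated, and the number of arrays limits the precision.

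The comparison of genotypes used limma 3.58.1 (lmFit, then eBayes) under R 4.3.3, with a two-sided test, genotype as the only term and Benjamini-Hochberg adjustment over all probes tested. The script was tested on simulated data. The brightest tested probe stood for a gene. Other genes were named through RefSeq accessions or symbols of assembly GRCm38, used for names only. Named were Selenbp1, all Smad probes, the 3 genes with the smallest p of each pathway list, and the genes closest in pattern, 5 for Smad7 and 1 for each other member, without clone or predicted names. The members and the gene lists were chosen with earlier results of these data known. Tables were made with pandas 2.3.3 and numpy 2.4.6, and plots with matplotlib 3.10.9, under Python 3.11.15.

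Alternatives were normexp with an offset of 50, quantile or median scaling, the series table, no filter or a stricter one, outlier spots kept, slide as a fixed or random block, slide 2 alone, array weights, the replicate number as a block, each array left out in turn, and the mean over the probes of a gene.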

Additional observations from a re-analysis of the deposited data

How the results depend on the processing

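Smad7, picked with this contrast known, was higher in knockout under all 19 alternatives, between 0.51 and 0.69. Smad1 (-1.18 to -0.15), Smad4 (-0.17 to -0.0084) and Smad5 (0.032 to 0.24) also kept their direction in all 19. Not all 19 could change a direction. The changed filters, outlier spots kept and the replicate number as a block returned the main difference for every member. The mean over probes did so for members with 1 probe. Slide 2 alone repeated the difference with slide as a fixed block. Direction changed for Smad2 with array weights and without wild type replicate 3 (0.012), for Smad3 with array weights (-0.0012), for Smad6 with array weights and without knockout replicate 2 (-0.11), and for Smad9 without wild type replicate 3 (0.0010). The causes were not tested. Between 3 and 6 of the 8 members were higher over all alternatives. Limma called 0 Smad probes in each alternative that refitted the model, while the mean over the probes of a gene was not refitted and has no count of calls. In the sum of immediate early genes, the lowest knockout exceeded the highest wild type by 7.91 times the 75th percentile, and without Nr4a1, a comparison chosen after seeing the data, this margin was -3.77. The 1 gene called over all probes, Selenbp1, was lost with no filter on background, with slide as a fixed block, on slide 2 alone and with the replicate number as a block (0 genes in each), and leaving out each array in turn gave 0 to 19 genes, with 19 in the absence of wild type replicate 3. The same leave-outs called 0 to 1 pathway genes, the 1 being Msx2 in the absence of wild type replicate 3. Without that array all wild types are of slide 1 and all knockouts of slide 2, so these calls cannot tell genotype from slide. The replicate numbers give the order of samples within a genotype and were not taken as pairs. Deviations from the genotype means correlated at -0.33, 0.30 and -0.027 for replicates 1, 2 and 3, which cannot settle whether samples were paired. Taking the replicate number as a block changed no call of a Smad probe (0) or pathway gene (0).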

Other observations

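Besides the 12 Smad probes, 4 probes carry predicted or transcript names that the files describe as related to Smad genes. The probe of LOC100048076, described as similar to Smad4, lies at chr18:73797826-73797885, 844 bases downstream of the brighter Smad4 probe. It averaged -2.89 ± 0.08 in knockout and -2.89 ± 0.04 in wild-type ovaries (SD, n = 3 each). The probe of LOC100047598, described as similar to SMAD8, another name of Smad9, was at -5.47, -5.35 and -5.60 in knockout replicates 1 to 3, against -3.71, -4.92 and -5.66 in wild type replicates 1 to 3. The LOC100047598 probe was well above background on all 3 knockout arrays but only 2 of 3 wild-type arrays. Wild type replicate 1 stood above the rest, and this course differed from that of the Smad9 probe, which was highest in wild type replicate 3. The probe of Gm4570, described as similar to Smad5, averaged -3.40 ± 0.12 in knockout and -3.58 ± 0.10 in wild type. The Smad1 transcript probe ENSMUST00000109885, at chr8:81865492-81865551, was not well above background on any of the 6 arrays. On the genome it lies between the 2 measured Smad1 probes. Whether it falls in an exon of the transcript they read was not annotated.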
